A study of Homo sapiens with 6 samples.

Results

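The genes described here encode 8 protein kinases that phosphorylate splicing factors: the CDC2-like kinases CLK1, CLK2, CLK3 and CLK4, the SR protein kinases SRPK1 and SRPK2, the dual-specificity kinase DYRK1A, and the spliceosomal kinase PRPF4B. They were picked by symbol from the 27451 gene rows of a poly-A RNA sequencing table, with the difference between treated and control libraries already known, so their own changes are given as a description and support no inference. All 8 reached a mean of 1 TPM (transcripts per 1000000) and were among the 12294 genes tested. The cells were MDA-MB-231, a long-established line from a human breast cancer. One group of 3 libraries came from cells treated with the vehicle DMSO, and the other group of 3 from cells treated for 2 h with 2 µM of H182, which the series title places among azetidine-based inhibitors of the transcription factor STAT3. The labels do not say whether replicates came from separate cultures, so errors and p-values measure the spread between libraries, which may be technical.

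SR proteins carry tails rich in arginine and serine, and the phosphate on those serines decides where the proteins are and what they bind. SRPK1 and SRPK2 add phosphate mostly in the cytoplasm, which lets the import receptor TNPO3 carry SR proteins into the nucleus. CLK kinases add more phosphate inside the nucleus and release SR proteins from nuclear speckles, the stores of splicing factors, toward sites of transcription. DYRK1A, whose gene lies on chromosome 21, phosphorylates splicing factors and also NFAT factors and the DREAM complex subunit LIN52. PRPF4B acts on the U4/U6.U5 tri-snRNP, the particle that joins the spliceosome before catalysis. The CLK1 gene is known for transcripts that keep introns and stay in the nucleus, and gene-level values do not separate these from spliced mRNA.

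Values are in TPM, a length-corrected share of the transcripts of each library, so the number of reads behind a value is unknown. Between 12230 and 12353 genes reached 1 TPM per library. The r across genes was 0.9928 to 0.9942 between 2 libraries of the same group and 0.9787 to 0.9806 between a DMSO and an H182 library, a description only, since genes are not independent. STAT3 itself had 63.7, 64.4 and 66.3 TPM in the DMSO libraries and 64.6, 62.9 and 64.1 TPM in the H182 libraries, and did not pass (limma adjusted p = 0.779). The line's mesenchymal markers VIM, CD44, EGFR, AXL and CAV1 summed to 6142 to 6276 TPM in DMSO and 5186 to 5521 TPM in H182. All 5 passed as lower in TPM, and 3 did after median-of-ratios scaling, and what part this had in the kinase values was not tested. Of 6 luminal markers ESR1, PGR and CDH1 were below 1 TPM in every library, and the 6 summed to 385 to 407 TPM in DMSO and 358 to 376 TPM in H182, most of it KRT19; of the 3 tested, GATA3 fell from 10.3 ± 0.883 to 6.75 ± 0.453 TPM (-0.54, limma adjusted p = 0.0047, and -0.45 with the other scaling), a larger change than any of the mesenchymal markers. The 5 leukocyte markers summed to 2.48 to 2.69 TPM in DMSO and 1.46 to 2.80 TPM in H182, and the 6 endothelial and fibroblast markers to 8.07 to 9.81 and 8.16 to 8.78 TPM. In bulk RNA, fewer cells of a kind and less RNA per cell cannot be told apart.

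CLK1 stood out among the kinases by its size of change. In DMSO its level was 29.3, 33.2 and 33.2 TPM, and in H182 it was 122, 123 and 133 TPM. Every H182 library lay far above every DMSO library, and the libraries within a group were close together. The mean went from 31.9 ± 2.23 to 126 ± 6.21 TPM (SD, n = 3 each), a 3.96-fold ratio. On the log2(TPM + 1) scale, used for all changes below, CLK1 differed by 1.95 (SE 0.064, 95% interval 1.81 to 2.09), which placed it 61st from the top of the 12294 tested genes. Rises of at least 2-fold that passed an adjusted p of 0.05 in the limma fit made up 1.30% of the tested genes. The gene (ENSG00000013441.15) lies on chromosome 2, 200853009 to 200864744, minus strand, GRCh38. GENCODE 29 lists 15 transcripts for it, 4 of them protein coding and 8 with a retained intron. None of the 1977 stretches of 50 bases in its longest coding transcript occurred in a transcript of another gene, CLK4 included.

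CLK4, the closest relative of CLK1, was the only other member above the threshold on the higher side. It was at 9.55, 11.8 and 12.3 TPM in DMSO and at 13.7, 14.01 and 15 TPM in H182. The groups did not overlap, although DMSO replicate 3 and H182 replicate 1 were close. Its mean went from 11.2 ± 1.47 to 14.2 ± 0.687 TPM, a change of 0.32 (SE 0.104, 95% interval 0.09 to 0.56). This call was marginal, being kept in 7 of 15 alternative fits, and was lost when DMSO replicate 1 (0.22) or 2 or any H182 replicate was left out, the change then lying between 0.22 and 0.36. CLK4 (ENSG00000113240.12; chromosome 5, 178602664 to 178630615, minus strand) has 15 annotated transcripts, 7 with a retained intron.

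CLK1 and CLK4 were the members called higher, CLK4 only marginally. The 250 bases before a RefSeq start of each (GRCh38.p14) are shown, 5′ to 3′ on the gene's strand. The pair was picked by these values, so a sequence match in both supports no inference about their change. For CLK1 the stretch is chr2:200864659-200864908 on the minus strand, and for CLK4 chr5:178627051-178627300 on the minus strand. Capitals mark the core of the cAMP response element, bound by CREB and ATF factors, read here on the opposite strand.
CLK1: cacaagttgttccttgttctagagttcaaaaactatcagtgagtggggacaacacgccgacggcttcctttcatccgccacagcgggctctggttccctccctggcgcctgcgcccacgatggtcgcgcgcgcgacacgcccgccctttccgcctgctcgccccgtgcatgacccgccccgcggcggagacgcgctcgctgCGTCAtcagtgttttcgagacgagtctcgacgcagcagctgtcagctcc
CLK4: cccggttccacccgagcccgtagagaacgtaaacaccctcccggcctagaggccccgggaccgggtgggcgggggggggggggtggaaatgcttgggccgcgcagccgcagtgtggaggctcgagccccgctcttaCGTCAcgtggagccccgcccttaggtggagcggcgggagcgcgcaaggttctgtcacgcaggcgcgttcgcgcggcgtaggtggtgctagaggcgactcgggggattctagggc

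The match begins 49 bases before the start in CLK1 and 114 bases before it in CLK4. In GENCODE 29 the outermost starts of these minus-strand genes lie further upstream, at 200864744 for CLK1 and 178630615 for CLK4. The CLK1 match and the whole CLK4 stretch thus lie inside the annotated genes. This core, TGACG on either strand, was present in 24.6% of all 35116 windows of 300 bases around RefSeq starts. RefSeq windows were matched for 7 members, 17 windows in all, and 6 of the 17 held the core: both for CLK1, the only one for CLK4, and 1 each for CLK3, SRPK2 and DYRK1A. The full element, TGACGTCA, was in none of the 17 (1.85% of all windows). The heat shock element core, GAANNTTC or TTCNNGAA on either strand, was in 1 of the 17, a DYRK1A window (13.5% of all windows). The C/EBP-ATF element TGATGNAA (3.62% of all windows) and the AP-1 site TGANTCA (7.71%), also on either strand, were each in 1 window of DYRK1A. DYRK1A had 6 of the 17 windows, more than any other member. The element and its core overlap by their letters, so a full element would also count as a core. A match is a string of letters and not a shown binding site.

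CLK2, which shares the nuclear role of CLK1, had 37.1, 38.6 and 39.7 TPM in the DMSO libraries and 37.1, 40.7 and 40.2 TPM in the H182 libraries. These ranges overlapped almost fully, and the change was 0.03 with a 95% interval from -0.10 to 0.17. For comparison, the change of CLK1 was 1.95. Of the 50-base stretches of CLK2's longest coding transcript 6.09% also occur in its pseudogene CLK2P1, so some of its reads may have been divided. The gene (ENSG00000176444.18) lies on chromosome 1, 155262868 to 155278491, minus strand, with 7 annotated transcripts and none labelled as keeping an intron.

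CLK3, a further CLK paralog that phosphorylates SR proteins in the nucleus, had the widest spread in H182. It was at 37.7, 37.5 and 38.2 TPM in DMSO and at 35.8, 46.1 and 51.6 TPM in H182. One H182 library, replicate 1, lay below all DMSO libraries and the other two lay above them. The change was 0.21 (SE 0.112, 95% interval -0.04 to 0.47) and did not pass, whereas without H182 replicate 1 it was 0.36 and passed. CLK3 (ENSG00000179335.18; chromosome 15, 74598500 to 74645414, plus strand) shares 14857 bases of gene span, introns included, with EDC3 on the opposite strand. How much of this is exon was not measured. The mean level of EDC3 was 28.9 TPM without H182 and 28.4 TPM with it. No source used here gives the strand setting of the counting, so reads of any shared exon stretch cannot be assigned with certainty.

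SRPK1, the main cytoplasmic SR protein kinase, had the highest level of the 8 genes. It was at 209, 211 and 194 TPM in DMSO and at 177, 168 and 172 TPM in H182. All H182 libraries lay below all DMSO libraries. The mean went from 204 ± 9.22 to 172 ± 4.47 TPM, a change of -0.24 (SE 0.045, 95% interval -0.35 to -0.14) that passed in TPM. With median-of-ratios scaling, in which the median tested gene moves by 0.00 and not by -0.09, it was -0.14 and missed the threshold. SRPK1 (ENSG00000096063.14 in the table) lies on chromosome 6, 35832966 to 35921342, minus strand.

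Its paralog SRPK2 was at 25.9, 28.1 and 27.6 TPM in DMSO and at 24.8, 25.2 and 25.4 TPM in H182. The groups did not overlap, but the gap between them was small, and the change of -0.11 (95% interval -0.25 to 0.03) did not pass. It was -0.01 with median-of-ratios scaling. SRPK1 exceeded SRPK2 in level by 7.53 ± 0.527 times in DMSO and 6.86 ± 0.246 times in H182, a ratio that does not depend on library scaling. SRPK2 (ENSG00000135250.16; chromosome 7, 105110704 to 105399308, minus strand) shares 3658 bases of gene span, introns included, with KMT2E on the opposite strand.

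DYRK1A was at 42.7, 44.7 and 42.1 TPM in DMSO and at 33.8, 37.1 and 40.4 TPM in H182. Every H182 library was below every DMSO library, with H182 replicate 3 nearest to them. The change of -0.22 (SE 0.071, 95% interval -0.38 to -0.06) did not pass after adjustment. It was -0.28 and passed without H182 replicate 3, and was -0.11 with median-of-ratios scaling. DYRK1A (ENSG00000157540.19 in the table) lies on chromosome 21, 37365573 to 37526358, plus strand, and has 24 annotated transcripts, 18 of them protein coding.

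PRPF4B fell, and its H182 libraries were the tightest set among the 8 genes in relative spread. It was at 64.6, 68.1 and 63.9 TPM in DMSO and at 48.0, 48.2 and 48.8 TPM in H182. The groups were well apart. The mean went from 65.5 ± 2.23 to 48.3 ± 0.391 TPM, a change of -0.43 (SE 0.049, 95% interval -0.54 to -0.32). It passed in all 15 alternative fits, at -0.33 with median-of-ratios scaling. PRPF4B (ENSG00000112739.16; chromosome 6, 4021267 to 4064983, plus strand) has 9 annotated transcripts, and 3.18% of the 50-base stretches of its coding transcript also occur in other annotated genes.

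**Figure D1:**
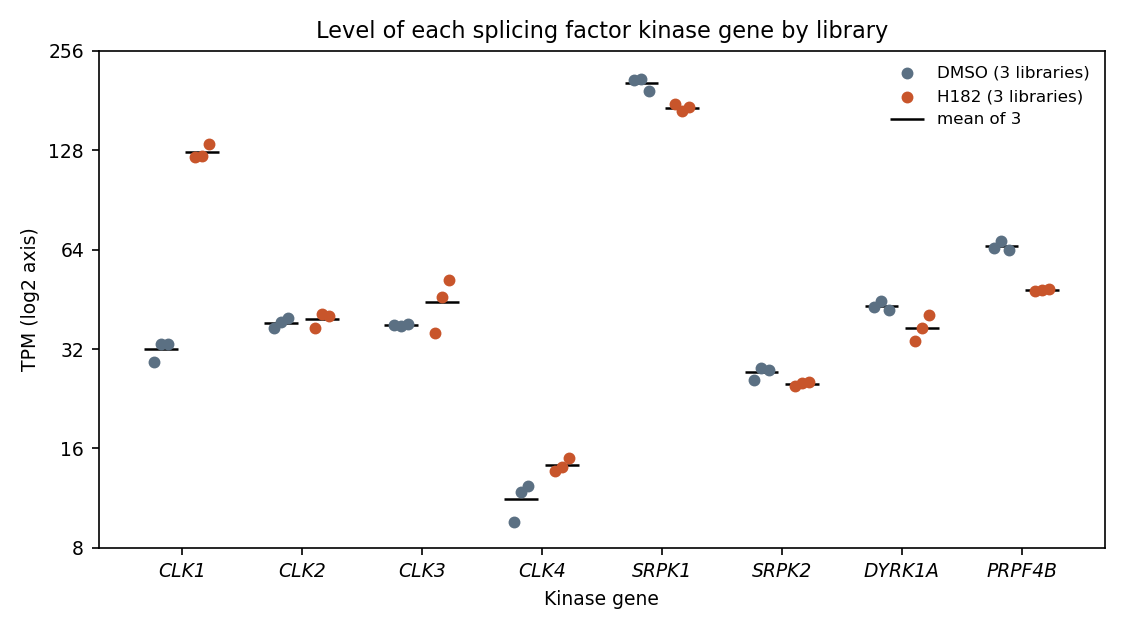
TPM of each kinase gene (log2 axis) in 3 DMSO and 3 H182 libraries, with points for libraries and a line at the mean of 3. CLK1 moves from about the level of CLK2 and CLK3 to between PRPF4B and SRPK1. On this axis the other 7 genes move less, PRPF4B from a mean of 65.5 to 48.3 TPM and CLK4 from 11.2 to 14.2 TPM.

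Over the 8 members, 4 passed the adjusted threshold in TPM, where 24.0% of all tested genes did. The higher calls were CLK1 and CLK4, beside 5.30% of tested genes called higher, and the lower calls were SRPK1 and PRPF4B, beside 18.7% called lower. The groups did not overlap for 6 of the 8, against 41.4% of tested genes: CLK1 and CLK4 on the higher side (8.67% of tested genes) and SRPK1, SRPK2, DYRK1A and PRPF4B on the lower side (32.7%). Nothing is read from these counts, because the genes were chosen with the comparison known. The median change of the 8 was -0.04, against -0.09 for all tested genes. With median-of-ratios scaling the members' median was 0.06, and CLK1, CLK4 and PRPF4B passed.

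**Figure D2:**
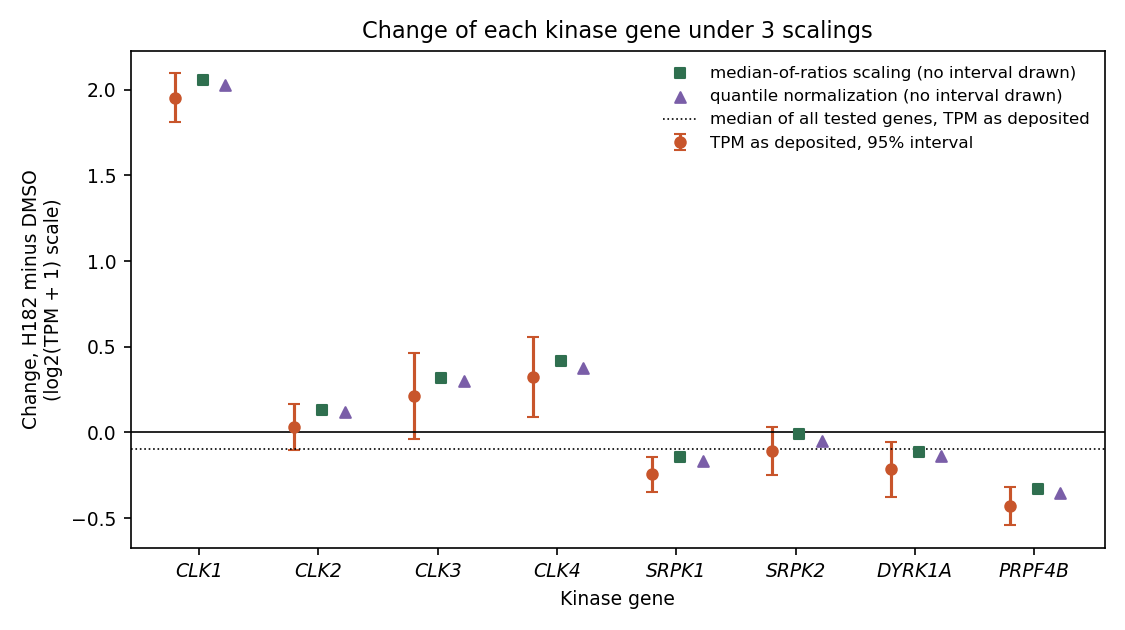
Change of each kinase gene, H182 minus DMSO on the log2(TPM + 1) scale, with 95% intervals for TPM as deposited and points without intervals for median-of-ratios scaling and quantile normalization. CLK1 lies near 2 under all 3 scalings. All points move up when the libraries are rescaled, those of SRPK1, SRPK2, DYRK1A and PRPF4B toward 0 and those of the CLK genes away from it.

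The place of CLK1 in the order of levels changed the most. In DMSO the order from the top was SRPK1, PRPF4B, DYRK1A, CLK2, CLK3, CLK1, SRPK2 and CLK4. Only CLK2 and CLK3 had overlapping ranges among neighbours. In H182 CLK1 was second, after SRPK1 and ahead of PRPF4B, with ranges that overlapped neither. PRPF4B, CLK3, CLK2 and DYRK1A followed, each range overlapping that of the next, so the order of these neighbours in H182 is not resolved. The PRPF4B range (48.0 to 48.8 TPM) did lie above those of CLK2 (37.1 to 40.7 TPM) and DYRK1A (33.8 to 40.4 TPM). SRPK2 and CLK4 were again the lowest.

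Because shares within the 8 genes are free of the scaling of the whole library, they show the shift without it. CLK1 held 6.43%, 7.03% and 7.36% of the summed TPM of the 8 genes in the DMSO libraries and 24.9%, 24.5% and 25.3% in the H182 libraries. SRPK1 held 44.5 ± 1.42% in DMSO and 34.0 ± 1.68% in H182, and PRPF4B 14.3 ± 0.132% and 9.54 ± 0.258%. CLK4 held 2.44 ± 0.321% and 2.81 ± 0.0355%. Shares have a fixed total, so the rise of CLK1 by itself lowers those of the others. CLK2 held 8.37 ± 0.379% in DMSO and 7.76 ± 0.311% in H182, while its mean TPM was 38.5 and 39.3. All of the H182 shares of CLK1 exceeded all of its DMSO shares by more than 17 percentage points.

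Within the CLK family the balance also changed. CLK1 made up 26.7 ± 0.823% of the summed TPM of the 4 CLK genes in DMSO and 56.3 ± 1.96% in H182. The ratio of CLK1 to CLK2 went from 0.829 ± 0.0346 to 3.21 ± 0.170, and that of CLK1 to CLK4 from 2.86 ± 0.192 to 8.86 ± 0.0910. The 4 CLK genes together went from 119 ± 5.09 to 224 ± 15.6 TPM, and without CLK1 from 87.5 ± 2.96 to 98.1 ± 10.4 TPM. The 8 genes together summed to 460 ± 11.4 TPM in DMSO and 507 ± 18.0 TPM in H182. Without CLK1 the other 7 summed to 428 ± 10.9 and 381 ± 12.1 TPM.

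**Figure D3:**
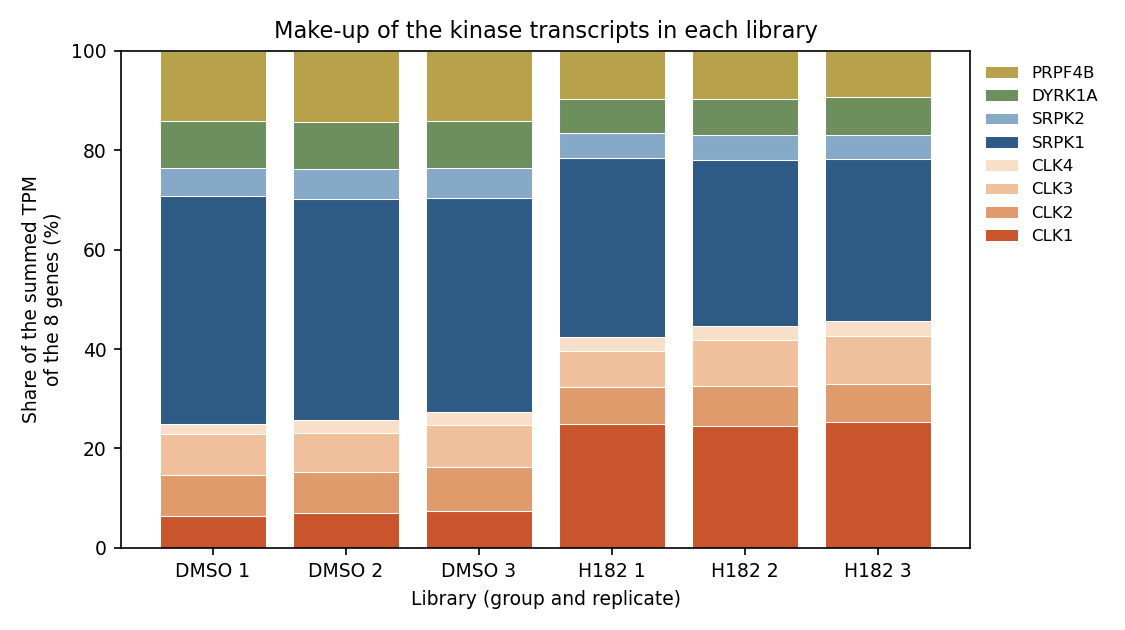
Share of each kinase gene in the summed TPM of the 8 genes, one stacked bar per library, in percent. CLK1 takes 6.43 to 7.36% of the bar in the 3 DMSO libraries and 24.5 to 25.3% in the 3 H182 libraries, and SRPK1 is the largest part in all 6.

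The lists below were also chosen with earlier results of these data known, and most of their named genes by lowest p. Their counts and p-values are therefore a description and support no inference. The counts stand beside those of all tested genes, 18.7% lower and 5.30% higher in TPM (2304 and 651 genes, and 833 and 969 with median-of-ratios scaling), with a median change of -0.09. That median is 0.00 with median-of-ratios scaling, and the value in parentheses after each list's median is likewise the one with that scaling. With a single library left out, 1396 to 2205 of all tested genes were called lower, so losses of lower calls were not particular to a list. Of 9 DYRK, HIPK and SRPK genes outside the members, 7 were tested and limma called 0, with 1 at an unadjusted p under 0.05. That gene was HIPK2, a kinase of transcription regulators, with 12.3 ± 1.07 TPM in DMSO and 9.30 ± 1.69 TPM in H182 (adjusted p = 0.0566), and it passed in 3 of 15 alternative fits, one of them without H182 replicate 3 (-0.50). DYRK1B, the closest paralog of DYRK1A, was at 5.30 ± 1.45 and 6.81 ± 0.714 TPM (change 0.33, adjusted p = 0.172), and passed without DMSO replicate 1 (0.50). The median change of the 7 was -0.02 (0.08). SRPK3 and HIPK4 had means below 1 TPM and were not tested.

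Of 14 other kinases that act on splicing factors or on splicing coupled to transcription, 4 fell and none rose in TPM (1 lower and 1 higher with median-of-ratios scaling), with a median of -0.14 (-0.04). The 4 became 1 without DMSO replicate 1 or 3 or H182 replicate 1 or 2, and 2 without DMSO replicate 2. UHMK1, which phosphorylates the branch point protein SF1, fell from 46.0 ± 1.08 to 34.2 ± 3.04 TPM (change -0.42, limma adjusted p = 0.00250). CDK9, the kinase of the elongation factor P-TEFb, fell by 0.22 on the log2 scale in TPM, but missed the threshold after median-of-ratios scaling and passed in only 6 of 15 alternative fits.

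Phosphatases reverse the action of these kinases. Of 9 measured phosphatase and regulator genes, 4 fell and none rose in TPM (2 lower and none higher with median-of-ratios scaling), with a median of -0.15 (-0.05). PPP1R10, a nuclear targeting subunit of protein phosphatase 1, was at 63.2, 66.4 and 57.7 TPM in DMSO and at 30.4, 29.7 and 25.7 TPM in H182. All H182 libraries lay far below all DMSO libraries. Its change was -1.10 (SE 0.079, limma adjusted p = 9.94e-06), and it was -0.999 and passed with median-of-ratios scaling. The catalytic subunit gene PPP1CC fell by 0.27 and passed with both scalings. PPM1G, a nuclear phosphatase that takes part in spliceosome assembly, fell by 0.21 in TPM, a call that median-of-ratios scaling removed (-0.11), as did no other of the 15 alternative fits.

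SR proteins are the substrates of CLK and SRPK kinases. Of 14 SR and TRA2 genes, 13 were tested, and 6 fell and 1 rose in TPM (3 and 1 once scaled by median of ratios), with a median change of -0.12 (-0.01). The 6 became 3 without DMSO replicate 2. SRSF1 fell from 376 ± 10.7 to 304 ± 3.35 TPM (change -0.30, limma adjusted p = 0.000340), SRSF2 from 494 ± 23.8 to 364 ± 26.3 TPM (-0.44, adjusted p = 0.000622) and SRSF6 from 241 ± 1.18 to 199 ± 4.14 TPM (-0.27, adjusted p = 0.000665). All 3 encode classical SR proteins and passed with both scalings. SRSF12 had a mean below 1 TPM and was not tested.

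Of 25 SR-related and nuclear speckle genes, 9 fell and 1 rose in TPM (4 and 2 once scaled by median of ratios), with a median change of -0.15 (-0.04). The 9 became 4 without H182 replicate 2, and the gene that rose passed only when DMSO replicate 2 or H182 replicate 2 was the library left out. BCLAF1 fell from 135 ± 1.18 to 102 ± 2.23 TPM (-0.39, limma adjusted p = 0.000124), the splicing coactivator SRRM1 from 175 ± 4.54 to 134 ± 2.79 TPM (-0.38) and THRAP3 from 126 ± 5.72 to 99.1 ± 1.82 TPM (-0.35). These 3 passed with both scalings.

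The tri-snRNP genes, partners of PRPF4B, showed 7 falls and no rise among 12 in TPM, but 1 fall and no rise with median-of-ratios scaling. The median change was -0.16 (-0.06). The 7 became 3 without DMSO replicate 1 or 2 or H182 replicate 1, and 4 without H182 replicate 2. The helicase gene DDX23, itself a target of SRPK phosphorylation, fell from 73.1 ± 5.58 to 55.8 ± 3.25 TPM (-0.38, limma adjusted p = 0.00372) and passed with both scalings. SNRNP40 (-0.25) and USP39 (-0.20) passed in TPM and not with median-of-ratios scaling, and USP39 was also lost with quantile normalization. PRPF31, a substrate of PRPF4B, did not pass at -0.10 (0.0012 with median-of-ratios scaling).

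Of 8 partners and substrates of DYRK1A, 2 rose and 2 fell in TPM (2 and none with median-of-ratios scaling), with a median change of -0.09 (-0.01). The 2 lower calls became 1 without DMSO replicate 2 or H182 replicate 1 or 2. FAM53C, whose protein binds DYRK1A, was at 37.9, 39.0 and 41.1 TPM in DMSO and at 63.7, 71.7 and 67.7 TPM in H182. RCAN1, a regulator of calcineurin that DYRK1A phosphorylates, was at 35.3, 36.2 and 35.2 TPM in DMSO and at 57.9, 53.0 and 56.7 TPM in H182. In both genes the groups were far apart, and the changes were 0.77 (SE 0.060, limma adjusted p = 2.03e-05) and 0.64 (SE 0.055, adjusted p = 4.20e-05). DCAF7, the scaffold protein of DYRK1A, fell by 0.21 in TPM, a call lost after median-of-ratios scaling and after quantile normalization.

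The last list holds chaperones that bind SRPK kinases, the scaffolds SAFB and SAFB2, and the import receptors TNPO1 and TNPO3. Of its 9 genes, 4 rose and 1 fell in TPM (5 and none with median-of-ratios scaling), with a median change of 0.07 (0.17). The 1 lower call became 2 without H182 replicate 3 and 0 without any other single library. The 4 that rose are all chaperone or cochaperone genes. HSP90AA1 went from 1308 ± 30.0 to 3489 ± 90.6 TPM, HSPA8 from 2123 ± 58.2 to 4592 ± 86.1 TPM, HSP90AB1 from 2298 ± 30.4 to 3302 ± 5.54 TPM and the HSP90 activator AHSA1 from 300.4 ± 16.8 to 476 ± 10.7 TPM. These genes serve many client proteins, so their levels are not particular to SRPK1. TNPO3, the receptor for phosphorylated SR proteins, was at 38.4 ± 0.771 and 34.4 ± 2.39 TPM and did not pass (adjusted p = 0.108), though it passed without H182 replicate 3 (-0.21).

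**Figure D4:**
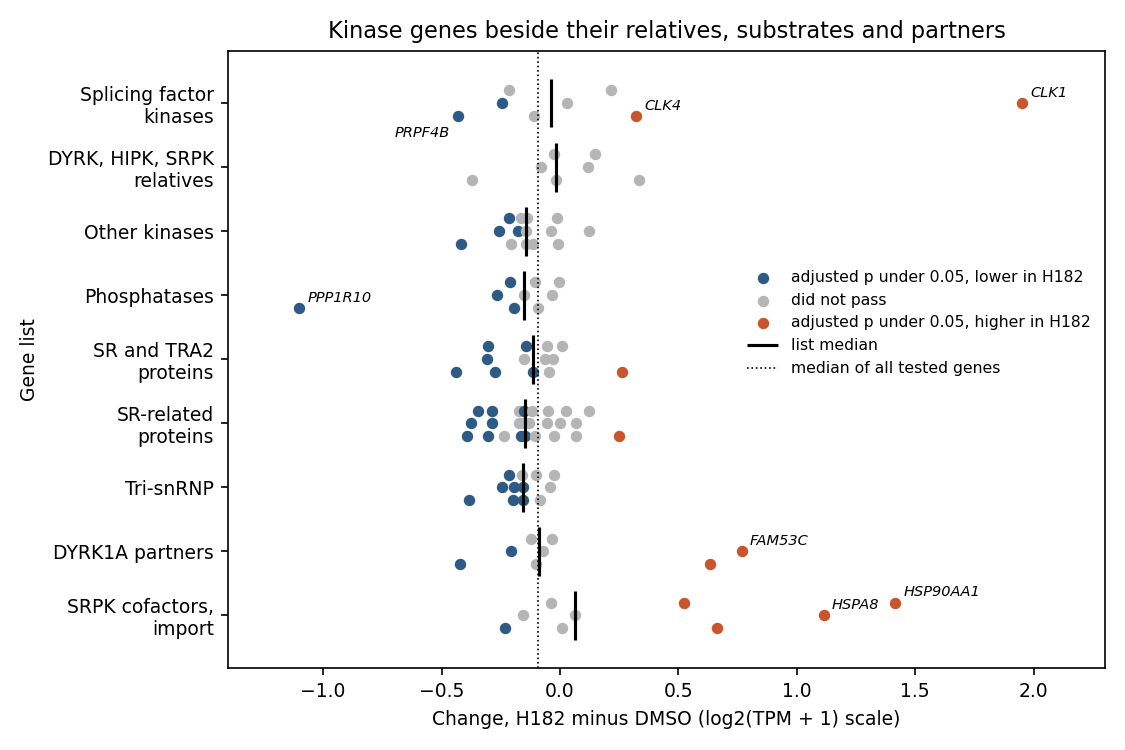
Change of every tested gene of each list, H182 minus DMSO on the log2(TPM + 1) scale, coloured by its call in TPM as deposited, with list medians as bars and the median of all tested genes (-0.09) as a dotted line. CLK1 lies apart from the other kinases, and lower calls near -0.2, such as SRPK1 and most of the tri-snRNP, are lost with median-of-ratios scaling.

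The genes whose 6-library profiles lay nearest to that of CLK1 were CEBPB, ADAMTS1 and PPP1R15A, out of 10088 genes whose mean reached 5 TPM. Likeness was the Euclidean distance between log2(TPM + 1) profiles centred on the DMSO mean, and their distances were 0.143, 0.193 and 0.247. CEBPB, a bZIP transcription factor, went from 70.5 to 285 TPM, the secreted protease gene ADAMTS1 from 96.6 to 403 TPM, and PPP1R15A, a stress-induced regulatory subunit of protein phosphatase 1, from 199.7 to 780.4 TPM. For PRPF4B, the member with the next largest change in size, the nearest genes were DUS2 (0.0433), CHST3 (0.0435) and KRTAP2-3 (0.0510). The measure follows the size of the change between the groups and only 6 libraries, so it describes a level pattern.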

How the data were processed

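Poly-A RNA of 3 DMSO and 3 H182 libraries of MDA-MB-231 was sequenced after a stranded library kit, per the labels' protocols. STAR 2.5.0, RSEM 1.2.25 and GRCh38 are named in the submitters' processing notes; no source used here gives the annotation, trimming or strand setting. The authors deposited TPM per gene and library, which RSEM scales to 1000000 per library, so depth is unknown and no counting interval was given. Of 27567 rows, 92 spike-in rows and 24 second rows of genes shared by X and Y were left out.

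Values were analysed as log2(TPM + 1) for genes whose mean reached 1 TPM, with limma 3.58.1 in R 4.3.3 (variance trend, two-sided, Benjamini-Hochberg over 12294 genes, threshold 0.05). "Rose" and "fell" mean passing this fit, which was tested on simulated data. Changes on this scale understate those of low genes. The 8 kinase genes and the other lists were chosen with earlier results of these data known. Of each list, up to 3 passing genes with the lowest p were named, or 2 where none passed. AHSA1, DNAJC8, TNPO3, TRA2A, TRA2B, RBM39, PRPF31 and SRSF12, with other untested genes, were named after their values were seen. A gene that this rule picks is not reported here. Positions come from GENCODE 29 by identifier, and promoter sequences from RefSeq (GRCh38.p14). Replicate numbers are shared between groups, but the labels do not say that they pair libraries. Alternatives covered pseudocount, filter, scaling, variance model, library weights, replicate block, threshold and leaving out each library. Figures were drawn with matplotlib 3.10.9.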

Additional observations from a re-analysis of the deposited data

How the results depend on the processing

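The change of each kinase gene and of the other genes given with a change, apart from the mesenchymal markers, was recomputed under 15 other fits, each count of calls also at an adjusted p of 0.01, and the shares with each library left out. CLK1 (1.89 to 2.05) and PRPF4B (-0.45 to -0.33) passed in all 15. CLK4 did not pass without a filter on low values or without the variance trend (0.32 each) or with library weights (0.30). SRPK1 missed the threshold after median-of-ratios scaling (-0.14). DYRK1A passed with the filter raised to 5 TPM (-0.22) and with library weights (-0.23). Leaving out single libraries gave 0.22 to 0.39 for CLK4, 0.10 to 0.36 for CLK3, -0.28 to -0.15 for DYRK1A and -0.28 to -0.22 for SRPK1. STAT3, at -0.02 in TPM, was at 0.081 with median-of-ratios scaling and 0.062 with quantile normalization, passing in none. Also without passing, PRPF31 went from -0.10 to 0.0012 and TRA2B from -0.03 to 0.074 with median-of-ratios scaling, and TRA2B lay between -0.066 and 0.028 with a library left out, above 0 without H182 replicate 2.

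The 2 members called higher became 1 without a filter, without the trend, with library weights and at 0.01, and 1 to 2 with a library left out. The 2 called lower became 1 with median-of-ratios scaling, and 2 to 3 with a library left out. Of all tested genes 2955 were called, 1802 with median-of-ratios scaling (969 higher and 833 lower), 1436 at 0.01 and 1947 to 2758 with a library left out. Lower calls, 2304 in TPM, were 1261 with quantile normalization, 998 at 0.01 and 1396 to 2205 with a library left out. The other lists together had 41 calls, 33 of them lower. These were 22 and 11 with median-of-ratios scaling, 26 and 19 without the trend, 20 and 13 at 0.01, and 26 to 42 and 18 to 35 with a library left out, and 18 were lower with quantile normalization. Leaving out DMSO replicate 2 or H182 replicate 2 lowered the count of lower calls the most (1396 and 1478 of all genes, 19 and 18 in the lists); without H182 replicate 1 the lists had 20 lower calls and 27 calls in all. The cause of these shifts was not tested, apart from the scaling, which moves the median gene from -0.09 to 0.00, and the threshold.

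Deviations of same-numbered libraries from their group means correlated at -0.013, 0.002 and -0.036 across genes. Those of differently numbered libraries correlated at -0.017 to 0.028. No deviation shared by number was seen, but this cannot decide whether the numbers pair libraries. With the replicate block, CLK1 differed by 1.95, the same number of members passed (4), and 2684 of all tested genes were called. Depth is unknown, which limits the low values most.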

Other observations

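Within 2 lists in which most calls were lower, single genes rose, chosen here after their values were seen. TRA2A, an activator of exon inclusion, was at 91.8, 95.3 and 102 TPM in DMSO and at 114, 116 and 116 TPM in H182, with no overlap (change 0.26, limma adjusted p = 0.00456, and 0.37 with median-of-ratios scaling). Its paralog TRA2B did not pass at -0.03 (0.074 with median-of-ratios scaling). RBM39, an RNA-binding protein of nuclear speckles, was at 335, 389 and 352 TPM in DMSO and at 438, 397 and 445 TPM in H182 (change 0.25, adjusted p = 0.0170, and 0.35 with median-of-ratios scaling). Its groups were close, since DMSO replicate 2 and H182 replicate 2 nearly met. TRA2A passed in 15 of 15 alternative fits, but RBM39 in 9, being lost without a filter on low values, without the variance trend, and when DMSO replicate 1 or 3 or H182 replicate 1 or 3 was left out (adjusted p from 0.00445 to 0.0709 over the 15).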
